A study of Mus musculus with 4 samples.

Results

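The unfolded protein response and the integrated stress response were followed through 38 genes in macrophages sorted from tumours of mice on a high-fat diet or a control diet. The genes are the sensors of stress in the endoplasmic reticulum (ER), the transcription factors that act after them, the ER chaperones and degradation factors, and Atf4 with its amino acid targets. They were taken by symbol from the 53379 gene identifiers of the table, and all 38 were found. All 38 passed the filter on low counts, with 198 to 73481 counts per gene and library. The study sequenced polyA RNA of tumour-associated macrophages from C57BL/6J mice fed a high-fat diet (2 mice) and from C57BL/6J mice fed a control diet (2 mice), 21 days after tumour implantation. The tumours were of MC38, a mouse colon carcinoma line, and cells positive for CD45, CD11b and F4/80 were sorted from them. All 4 mice carried such a tumour, so the comparison of high-fat with control diet is made within tumour-bearing hosts. Not given in the sources used here are the makeup and length of the diets and the sex and age of the mice.

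The ER folds secreted and membrane proteins, and unfolded proteins in it are sensed by Ern1 (IRE1 alpha), Eif2ak3 (PERK) and Atf6. IRE1 alpha splices the Xbp1 transcript, ATF6 is cleaved to a transcription factor, and both raise chaperones and genes of ER-associated degradation. PERK, like the amino acid sensor GCN2 (Eif2ak4), phosphorylates the initiation factor eIF2 alpha, which lowers protein synthesis while it favours translation of Atf4. ATF4 in turn drives genes of amino acid uptake and synthesis, and Ppp1r15a closes the loop by bringing a phosphatase to eIF2 alpha. Macrophages use these pathways during secretion, lipid overload and inflammatory activation. Splicing of Xbp1, cleavage of ATF6 and phosphorylation of eIF2 alpha are not visible in counts per gene, so the values below are transcript levels only.

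Promoters of 33 of the 38 genes were found in the RefSeq table of windows from 250 bases before to 50 bases after each transcription start (GRCm38.p6), and the sequences below show the elements that group them. The ER stress response element (ERSE: CCAAT, any 9 bases, CCACG) is the site of ATF6 with NF-Y, and capitals mark it in the first 5 sequences. ERSE-II (ATTGG, any 1 base, CCACG) and the C/EBP-ATF response element core (CARE, TGATGNAA) are in capitals in the others. Both strands were searched, so a match on the opposite strand reads as the reverse complement (CGTGG before ATTGG for ERSE, TTGCATCA for CARE).
Hspa5: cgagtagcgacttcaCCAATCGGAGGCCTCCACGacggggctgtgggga
Syvn1: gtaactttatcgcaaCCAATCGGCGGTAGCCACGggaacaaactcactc
Calr: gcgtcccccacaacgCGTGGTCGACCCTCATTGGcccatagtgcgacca
Canx: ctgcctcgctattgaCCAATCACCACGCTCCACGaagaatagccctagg
Hsp90b1: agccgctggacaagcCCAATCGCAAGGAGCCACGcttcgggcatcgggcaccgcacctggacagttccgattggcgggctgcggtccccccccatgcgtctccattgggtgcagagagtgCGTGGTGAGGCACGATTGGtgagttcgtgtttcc
Herpud1: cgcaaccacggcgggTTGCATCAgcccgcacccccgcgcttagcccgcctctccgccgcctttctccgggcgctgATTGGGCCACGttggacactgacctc
Asns: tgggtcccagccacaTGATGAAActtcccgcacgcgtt
Chac1: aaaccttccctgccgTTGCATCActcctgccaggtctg
Slc7a11: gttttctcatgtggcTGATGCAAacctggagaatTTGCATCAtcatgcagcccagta
The stretches are given 5′ to 3′ on the strand of the gene and end before the transcription start. They lie at chr2:34772010-34772058 (plus strand) for Hspa5, chr19:6046517-6046565 (plus) for Syvn1, chr8:84847060-84847108 (minus) for Calr, chr11:50325785-50325833 (minus) for Canx and chr10:86705518-86705671 (minus) for Hsp90b1. Those of the other 4 are chr8:94386302-94386402 (plus) for Herpud1, chr6:7693210-7693247 (minus) for Asns, chr2:119351034-119351071 (plus) for Chac1 and chr3:50443638-50443694 (minus) for Slc7a11.

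ERSE was found in the window of 8 of the 33 genes, against 37 of the 27025 genes with a window (0.137%). The 8 were Hspa5, Hsp90b1, Calr, Canx, Pdia6, Dnajc3, Creld2 and Syvn1, and the nearest match to a start began 44 bases before that of Syvn1. Hsp90b1 alone held 2 matches. ERSE-II was in Herpud1 and, 8 bases after the start, in Dnajb11, against 12 of all genes (0.0444%). CARE was in Asns, Chac1, Trib3, Slc7a11 and Herpud1 (5 of 33), against 1219 of all genes (4.51%), and Slc7a11 held 2. The element TGACGTGG, a site of spliced XBP1, was in 0 of the 33 windows, against 193 of all genes (0.714%). No match overlapped another in these 33 genes. Many of them were known as targets before they were listed, so the shares describe the list.

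The libraries held 34148682 to 37159552 counts, and all 12 macrophage markers on the list were measured, together 13727 and 14445 CPM on the high-fat diet and 9878 and 13576 CPM on the control diet. The sort markers Ptprc, Itgam and Adgre1 were not called by edgeR (adjusted p = 0.323, 0.96 and 0.823), and of the 12 macrophage markers 1 rose, Mrc1, and 0 fell. Markers of other cell types, mitochondrial transcripts and immediate early genes differed between the diets. Summed neutrophil markers were 193 and 171 CPM on the high-fat diet and 394 and 193 CPM on the control diet (6 of 9 tested lower, Ly6g at 0 in both high-fat-diet mice, Ngp in mouse 2), and those of carcinoma cells were 40.1 and 46.5 CPM on the high-fat diet and 161 and 123 CPM on the control diet (8 of 9 tested lower, Cldn4 at 0 in high-fat-diet mouse 1 and Esrp1 in mouse 2). Dendritic cell markers summed to 26.5 and 32.1 CPM on the high-fat diet and 107 and 61.9 CPM on the control diet (2 of 10 lower), and fibroblast and pericyte markers to 2064 and 2058 CPM on the high-fat diet and 1040.1 and 779.5 CPM on the control diet (6 of 10 higher). Markers of B and plasma cells, of which plasma cells are rich in ER, summed to 53.6 and 58.9 CPM on the high-fat diet and 81.3 and 61.5 CPM on the control diet (2 of 6 tested lower, Tnfrsf17 at 0 in mouse 2 of each diet). Most of that sum was Sdc1 and Cd79b, while Igkc had 0.0801 and 0.13 CPM on the high-fat diet and 5.18 and 12.8 CPM on the control diet, and Jchain had 2 and 1 counts on the high-fat diet and 9 and 81 on the control diet. Cdh1 made up most of the carcinoma sum except in control-diet mouse 2, while Krt8 had 0.0801 and 0.0521 CPM on the high-fat diet and 2.31 and 16.2 CPM on the control diet. Csf3r and Mmp9, neither of them called, made up most of the neutrophil sum in each mouse. S100a9 had 2.75 and 2.19 CPM on the high-fat diet, against 55.4 and 24.8 CPM on the control diet. Col3a1 made up most of the fibroblast and pericyte sum in each mouse. Postn had 28.1 and 31.2 CPM on the high-fat diet, against 3.42 and 3.68 CPM on the control diet. Mrc1, Sdc1, Cd79b, Igkc, Jchain, Cdh1, Krt8, Csf3r, Mmp9, S100a9, Col3a1 and Postn were chosen after their values were seen. T and NK cell markers summed to 42.6 and 38.3 CPM on the high-fat diet and 144 and 35.6 CPM on the control diet (1 of 12 higher, 1 lower), and those of endothelial cells to 43.4 and 59.8 CPM on the high-fat diet and 92.2 and 51.8 CPM on the control diet (0 of 5 tested called). Mitochondrially encoded transcripts summed to 24710.0 and 14374 CPM on the high-fat diet and 6515 and 9532 CPM on the control diet (2 of 7 tested higher, 5 of 13 listed at 0 in every library). Immediate early genes summed to 6851 and 7193 CPM on the high-fat diet and 11266 and 7562 CPM on the control diet (5 of 12 lower). Of these 12 genes, 1 had a positive log2 fold change and 11 a negative one. The 1 was Fos, not called, with 2822 and 2724 CPM on the high-fat diet and 2053 and 1663 CPM on the control diet. Nr4a2, called lower, had 42.9 and 40.0 CPM on the high-fat diet and 733 and 443 CPM on the control diet. Fos and Nr4a2 were chosen after their values were seen. Cytosolic heat shock genes summed to 1206 and 1609 CPM on the high-fat diet and 1800.3 and 1986 CPM on the control diet (0 of 10 called). The part of these differences in the results below was not tested, and in bulk RNA a change in the number of cells of a type and one in RNA per cell cannot be told apart.

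Of the 38 genes, 6 fell on the high-fat diet and 0 rose, at an adjusted p below 0.05 in edgeR's quasi-likelihood test over 18422 genes. The 6 were the sensors Ern1 and Eif2ak3, the phosphatase subunit Ppp1r15a, the chaperones Hyou1 and Dnajb9 and the ubiquitin ligase Syvn1. They are 15.8% of the 38, against 7.91% of all genes called lower and 2.61% called higher. CPM are counts relative to the TMM-scaled library size, and all 38 genes had a mean log2 CPM above 3. Of the 10312 genes at or above 3, 4.92% were called lower and 2.95% higher. At an unadjusted p below 0.05 there were 13 lower genes of the 38 and 1 higher, Psat1, against 17.7% lower and 13.6% higher of all genes and 13.7% and 14.7% of the 10312. Both high-fat-diet mice lay below both control-diet mice in 18 of the 38 genes (47.4%, against 31.6% of all genes and 29.2% of the 10312), and above them in 9 (23.7%, against 32.2% and 33.9%). The median log2 fold change was -0.18, against 0.005 over all genes tested. The count of 6 lower genes was lost with either mouse of the high-fat diet left out, as were most calls over all genes. It was 4 without control-diet mouse 1, when 8.65% of all genes were called lower and 4.40% higher, Asns, Phgdh and Trib3 among the higher. It was 12 without control-diet mouse 2, when 13.2% of all genes were called lower and 10.1% higher. DESeq2 called 9 of the 38 lower and 1 higher, Psat1, against 9.02% and 5.18% of all genes. With genes below a mean log2 CPM of 2 left out, edgeR called 0 of the 38, against 2.36% lower and 0.592% higher of all genes.

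**Figure D1:**
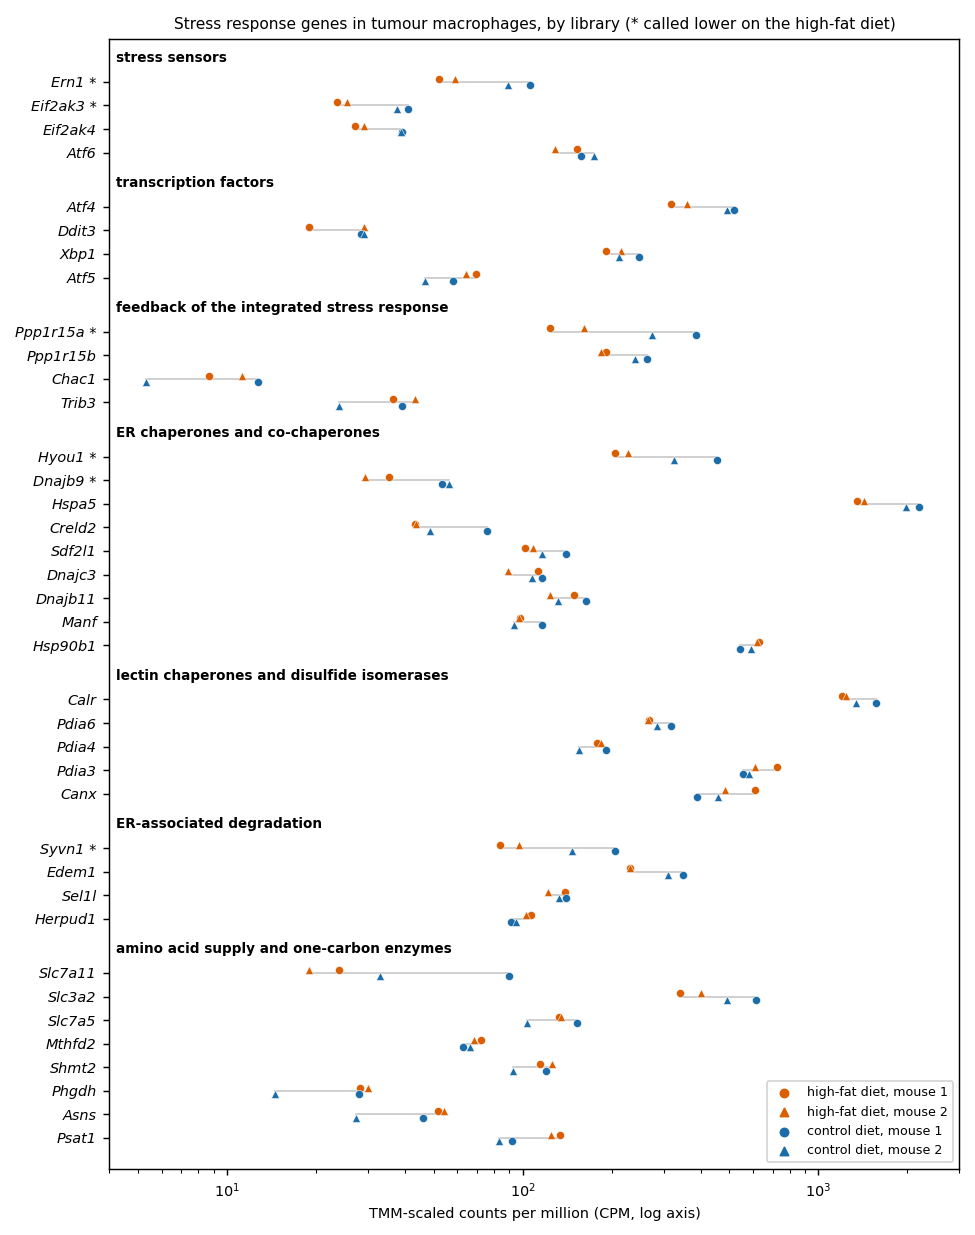
Level of each of the 38 genes in each library, in CPM relative to the TMM-scaled library size on a log axis, grouped by role and ordered within a role by fold change. Orange points are the high-fat-diet mice and blue points the control-diet mice. For the 6 genes with an asterisk, both orange points lie left of both blue points, and Slc7a11 and Chac1 have the widest distance between the 2 blue points.

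Transcripts of all 4 stress sensors were lower in both high-fat-diet mice than in either control-diet mouse, and the call was made for Ern1 and Eif2ak3. The same order held for 31.6% of all genes tested, and for 29.2% of those at or above a mean log2 CPM of 3. Ern1 (chromosome 11, 106394650 to 106487852, GRCm38), the kinase and RNase that splices Xbp1, had 52.0 and 59.1 CPM in the high-fat-diet mice, against 106 and 89.0 CPM in the control-diet mice. It fell 1.76-fold (log2 fold change -0.81, SE 0.16, edgeR adjusted p = 0.0348). Eif2ak3 (chromosome 6, 70844515 to 70905245), which encodes PERK, had 23.5 and 25.4 CPM in the high-fat-diet mice, against 41.0 and 37.7 CPM in the control-diet mice. It fell 1.61-fold (log2 fold change -0.69, SE 0.14, edgeR adjusted p = 0.0384), and the 2 mice of a diet were closer to each other than to any mouse of the other diet. Eif2ak4, the kinase GCN2 that senses uncharged tRNA, had 27.0 and 29.0 CPM in the high-fat-diet mice, against 39.1 and 38.7 CPM in the control-diet mice, a difference that missed the threshold (log2 fold change -0.47, SE 0.14, edgeR adjusted p = 0.0775). Atf6, which encodes the membrane-bound precursor of the transcription factor, had 152 and 128 CPM in the high-fat-diet mice, against 157 and 175 CPM in the control-diet mice. Its log2 fold change of -0.25 (SE 0.16, edgeR adjusted p = 0.332) was the smallest of the 4 in size. Neither Ern1 nor Eif2ak3 kept its call when high-fat-diet mouse 1 (adjusted p = 0.214 for Ern1, 0.26 for Eif2ak3) or mouse 2 (0.115 for Ern1, 0.163 for Eif2ak3) was left out. Eif2ak3 also lost it when control-diet mouse 1 was left out (adjusted p = 0.0534) and with the mouse number as a block (0.0663).

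None of the 4 transcription factors was called by edgeR, and Atf4 came nearest. Atf4, the effector of the integrated stress response, had 318 and 359 CPM in the high-fat-diet mice, against 516 and 492 CPM in the control-diet mice (log2 fold change -0.58, SE 0.16, edgeR adjusted p = 0.0658). The diets did not overlap for Atf4. DESeq2 called it lower (adjusted p = 0.0268), but edgeR with the mouse number as a block did not (adjusted p = 0.119). Only the fit without control-diet mouse 2 called Atf4 lower among those leaving out 1 mouse. Xbp1, whose spliced form drives chaperone and degradation genes, had 191 and 214 CPM in the high-fat-diet mice, against 248 and 212 CPM in the control-diet mice (adjusted p = 0.479), so the diets overlapped. Ddit3, which encodes the pro-apoptotic factor CHOP, had 19.0 and 29.0 CPM in the high-fat-diet mice, against 28.4 and 29.0 CPM in the control-diet mice (adjusted p = 0.458). Only high-fat-diet mouse 1 stood below the other 3 mice for Ddit3. Atf5 is a relative of ATF4 that is also translated under stress. It had 69.7 and 64.5 CPM in the high-fat-diet mice, against 58.0 and 46.5 CPM in the control-diet mice (log2 fold change 0.36, SE 0.16, edgeR adjusted p = 0.189). Of the 4 factors, Atf5 alone had both high-fat-diet mice above both control-diet mice. That order held for 32.2% of all genes tested, and for 33.9% of those at or above a mean log2 CPM of 3.

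Of the 4 feedback genes, Ppp1r15a fell and the others were not called. Ppp1r15a (chromosome 7, 45522916 to 45526268), which encodes the stress-induced phosphatase subunit GADD34, had 124 and 162 CPM in the high-fat-diet mice, against 384 and 274 CPM in the control-diet mice. It fell 2.31-fold (log2 fold change -1.21, SE 0.23, edgeR adjusted p = 0.0318), the largest fold among the 6 called genes, and the diets did not overlap. It was not called when high-fat-diet mouse 1 (adjusted p = 0.153) or mouse 2 (0.0636) was left out. Ppp1r15b, the constitutive subunit CReP, had 191 and 184 CPM in the high-fat-diet mice, against 263 and 241 CPM in the control-diet mice (log2 fold change -0.43, SE 0.15, edgeR adjusted p = 0.109). The same order of the diets was thus seen in both subunits, with a smaller size in Ppp1r15b. That order held for 31.6% of all genes tested. Trib3, a pseudokinase that restrains ATF4 and CHOP, had 36.3 and 43.3 CPM in the high-fat-diet mice, against 39.0 and 24.0 CPM in the control-diet mice (adjusted p = 0.389). Chac1, an ATF4 and CHOP target that degrades glutathione, had 8.65 and 11.3 CPM in the high-fat-diet mice, against 12.7 and 5.32 CPM in the control-diet mice (adjusted p = 0.84). For Trib3 and Chac1 the control-diet mice lay on either side of at least 1 high-fat-diet mouse, and Trib3 was called higher without control-diet mouse 1 (adjusted p = 0.0458).

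The ER chaperones and co-chaperones split in size: Hyou1 and Dnajb9 fell, Hspa5 and Creld2 were lower without a call, and the other 5 differed by less than 0.3 on the log2 scale. Hspa5, which encodes BiP, the main Hsp70 of the ER, had 1356 and 1432 CPM in the high-fat-diet mice, against 2195 and 1976 CPM in the control-diet mice (log2 fold change -0.58, SE 0.16, edgeR adjusted p = 0.0714). The diets did not overlap for Hspa5. DESeq2 called it lower (adjusted p = 0.0226), but edgeR with the mouse number as a block did not (adjusted p = 0.127). Only the fit without control-diet mouse 2 called Hspa5 lower among those leaving out 1 mouse. Hyou1 (chromosome 9, 44379490 to 44392369), the large Hsp70-like protein that exchanges nucleotide on BiP, had 206 and 226 CPM in the high-fat-diet mice, against 453 and 325 CPM in the control-diet mice. It fell 1.80-fold (log2 fold change -0.85, SE 0.20, edgeR adjusted p = 0.0498), just inside the threshold. Dnajb9 (chromosome 12, 44205559 to 44210326), the J protein ERdj4 that brings BiP to IRE1 alpha, had 35.2 and 29.3 CPM in the high-fat-diet mice, against 53.1 and 56.4 CPM in the control-diet mice, and fell 1.70-fold (log2 fold change -0.76, SE 0.16, edgeR adjusted p = 0.0367). Both calls were lost when high-fat-diet mouse 1 (adjusted p = 0.252 for Hyou1, 0.115 for Dnajb9) or mouse 2 (0.162 for Hyou1, 0.203 for Dnajb9) was left out, and that of Hyou1 also when control-diet mouse 1 was (0.0687). A processed pseudogene of Dnajb9, Gm6568, picked with its values in view, held 67 and 89 counts on the high-fat diet and 136 and 143 on the control diet, 6.94% of the counts of Dnajb9, and how shared reads were split is not known.

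Hsp90b1, the ER Hsp90 known as GRP94, had 629.7 and 621 CPM in the high-fat-diet mice, against 544 and 593 CPM in the control-diet mice (log2 fold change 0.14, SE 0.15, edgeR adjusted p = 0.572). It was the 1 chaperone of the 9 with both high-fat-diet mice above both control-diet mice, an order that held for 32.2% of all genes tested. Creld2, a stress-induced disulfide isomerase-like protein, had 43.3 and 43.5 CPM in the high-fat-diet mice, against 75.7 and 48.7 CPM in the control-diet mice (adjusted p = 0.174). It was called lower without control-diet mouse 2 and in no other alternative. Sdf2l1, a partner of the ER J proteins, had 102 and 108 CPM in the high-fat-diet mice, against 139.6 and 116 CPM in the control-diet mice (adjusted p = 0.265). Dnajb11, the J protein ERdj3, had 149 and 123 CPM in the high-fat-diet mice, against 164 and 132 CPM in the control-diet mice (adjusted p = 0.689). Control-diet mouse 1 stood above the other 3 mice for Creld2, and in Dnajb11 the diets overlapped. Dnajc3, the J protein p58IPK, had 112 and 88.8 CPM in the high-fat-diet mice, against 116 and 107 CPM in the control-diet mice (adjusted p = 0.568). Manf, a secreted survival factor retained by BiP, had 97.7 and 96.9 CPM in the high-fat-diet mice, against 116 and 93.4 CPM in the control-diet mice (adjusted p = 0.682). The diets overlapped for Dnajc3 and Manf as well.

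**Figure D2:**
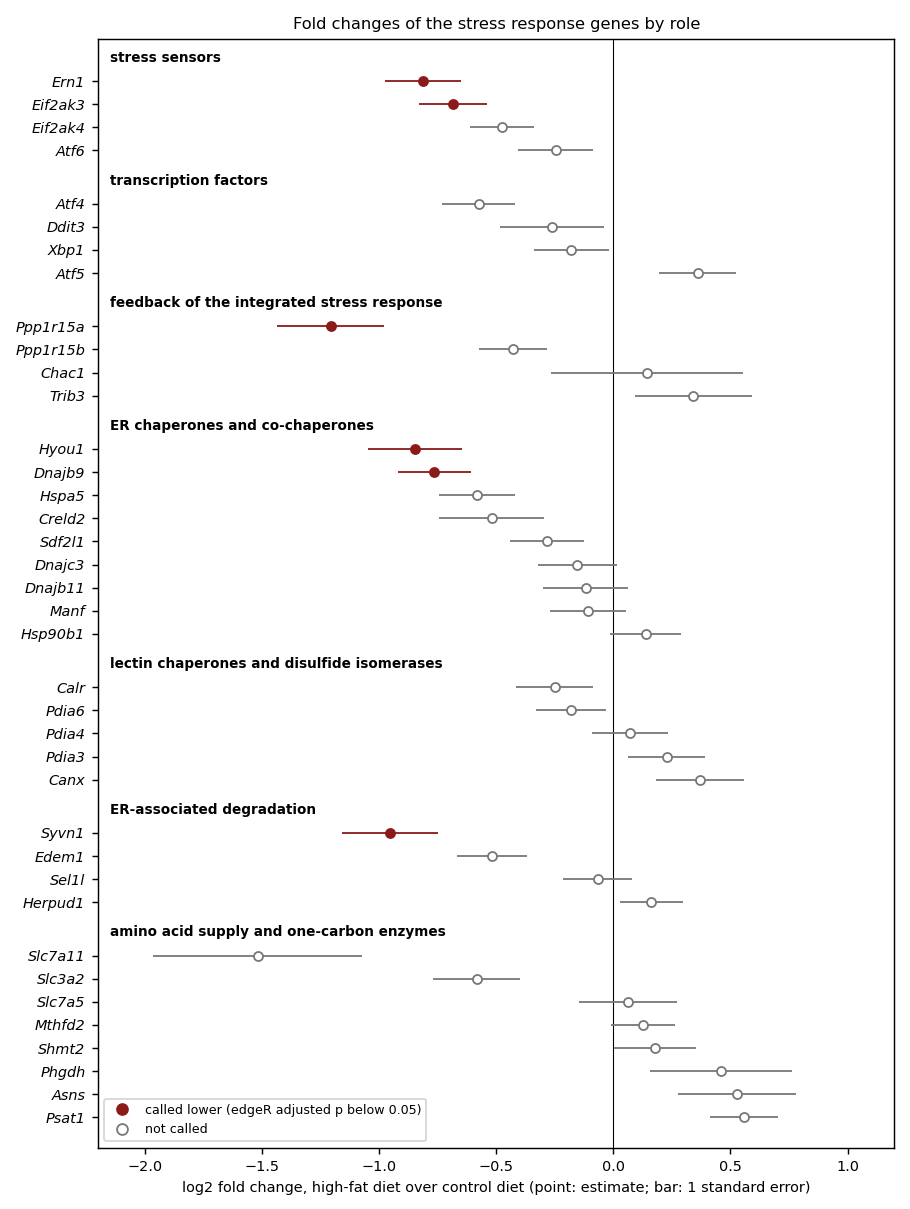
Log2 fold change of each of the 38 genes, high-fat diet over control diet, with bars of 1 standard error from edgeR, grouped by role. The 6 filled points are the genes called lower, from -1.21 for Ppp1r15a to -0.69 for Eif2ak3, and no point right of 0 was called.

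Lectin chaperones and protein disulfide isomerases were not called in either direction (5 genes, median log2 fold change 0.07, and -0.07 when control-diet mouse 2 was left out). Calr, the soluble lectin chaperone calreticulin, had 1206 and 1238 CPM in the high-fat-diet mice, against 1561 and 1345 CPM in the control-diet mice (log2 fold change -0.25, SE 0.17, edgeR adjusted p = 0.342). Canx, its membrane-bound relative calnexin, had 612 and 484 CPM in the high-fat-diet mice, against 389.9 and 458 CPM in the control-diet mice (log2 fold change 0.37, SE 0.19, edgeR adjusted p = 0.228). Both pairs of mice were separate in each of these genes, in opposite directions. Pdia3, the isomerase ERp57 that works with both lectins, had 723 and 612 CPM in the high-fat-diet mice, against 556 and 583 CPM in the control-diet mice (adjusted p = 0.383). Pdia4, the isomerase ERp72, had 179 and 184 CPM in the high-fat-diet mice, against 191 and 155 CPM in the control-diet mice (adjusted p = 0.795). Pdia6, the isomerase P5 that acts on IRE1 alpha and PERK, had 267 and 265 CPM in the high-fat-diet mice, against 318 and 285 CPM in the control-diet mice (adjusted p = 0.442). Pdia4 was the 1 gene of the 5 whose diets overlapped. Over all genes tested, both high-fat-diet mice lay above both control-diet mice in 32.2% and below them in 31.6%.

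In ER-associated degradation, Syvn1 fell and its partners were not called. Syvn1 (chromosome 19), the ubiquitin ligase HRD1 of the ER membrane, had 84.0 and 97.3 CPM in the high-fat-diet mice, against 205 and 146 CPM in the control-diet mice. It fell 1.94-fold (log2 fold change -0.95, SE 0.20, edgeR adjusted p = 0.0399), and the control-diet mice were further apart than the high-fat-diet mice. Leaving out high-fat-diet mouse 1 (adjusted p = 0.207) or mouse 2 (0.115) ended its call. Sel1l, the adaptor that holds HRD1 in its complex, had 139 and 122 CPM in the high-fat-diet mice, against 140.1 and 133 CPM in the control-diet mice (log2 fold change -0.07, SE 0.15, edgeR adjusted p = 0.787), so the diets overlapped in the partner of Syvn1. Edem1, which hands glycoproteins with trimmed mannose to the complex, had 230.1 and 230.2 CPM in the high-fat-diet mice, against 348 and 311 CPM in the control-diet mice (log2 fold change -0.52, SE 0.15, edgeR adjusted p = 0.0761). It was called lower without control-diet mouse 2 and in no other alternative. Herpud1, a ubiquitin-like scaffold of the same complex, had 106 and 102 CPM in the high-fat-diet mice, against 91.5 and 94.9 CPM in the control-diet mice (log2 fold change 0.16, SE 0.14, edgeR adjusted p = 0.448). The high-fat-diet mice were the higher pair for Herpud1 and the lower pair for Edem1.

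Of the 8 genes of amino acid supply and one-carbon metabolism, 0 were called, and the log2 fold changes ran from -1.52 for Slc7a11 to 0.56 for Psat1. Slc7a11, the cystine-glutamate exchanger xCT, had 23.9 and 19.0 CPM in the high-fat-diet mice, against 89.9 and 32.9 CPM in the control-diet mice. Its log2 fold change was the largest in size of the 38, -1.52, with the widest error of the 38 (SE 0.45, edgeR adjusted p = 0.08), and control-diet mouse 1 stood apart. Leaving out that mouse gave a log2 fold change of -0.62 (adjusted p = 0.0801), and leaving out control-diet mouse 2 gave -2.07 (adjusted p = 0.000197). It was called lower with the mouse number as a block (adjusted p = 0.02) and by DESeq2 (adjusted p = 0.00174). In another edgeR setting that kept all mice, its adjusted p was 0.398. Tuba1a, Tuba1b, Tuba1c and 10 processed pseudogenes match a stretch of 4.03% to 6.34% of the longest annotated transcript of Slc7a11 at 90% identity or more and held 1491% of its counts, so part of its count is uncertain. Slc3a2, the CD98 heavy chain that pairs with xCT and with LAT1, had 339 and 399 CPM in the high-fat-diet mice, against 617 and 489.8 CPM in the control-diet mice (log2 fold change -0.58, SE 0.19, edgeR adjusted p = 0.095). It was called lower without control-diet mouse 2 and in no other alternative. Slc7a5, the large neutral amino acid transporter LAT1, had 133 and 134 CPM in the high-fat-diet mice, against 153 and 103 CPM in the control-diet mice (adjusted p = 0.867), with both high-fat-diet mice between the control-diet mice.

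Psat1, the aminotransferase of serine synthesis, had 134 and 125 CPM in the high-fat-diet mice, against 92.1 and 83.3 CPM in the control-diet mice (log2 fold change 0.56, SE 0.14, edgeR adjusted p = 0.0595), and DESeq2 called it higher (adjusted p = 0.0303). The processed pseudogene Gm12611, picked with its values in view, matches part of Psat1 and held 316 and 314 counts on the high-fat diet and 205 and 208 on the control diet, 6.57% of the counts of Psat1. Asns, asparagine synthetase, had 51.5 and 54.0 CPM in the high-fat-diet mice, against 46.0 and 27.3 CPM in the control-diet mice (log2 fold change 0.53, SE 0.25, edgeR adjusted p = 0.208). Phgdh, the first enzyme of serine synthesis, had 28.2 and 30.0 CPM in the high-fat-diet mice, against 27.9 and 14.5 CPM in the control-diet mice (log2 fold change 0.46, SE 0.30, edgeR adjusted p = 0.339). Without control-diet mouse 1, Asns (adjusted p = 0.0158) and Phgdh (adjusted p = 0.0157) were called higher. For Asns, Phgdh and Psat1 both high-fat-diet mice lay above both control-diet mice, by the smallest margin in Phgdh. That order held for 32.2% of all genes tested. The count of Phgdh is uncertain, since 17 other annotated genes match its transcript at 90% identity or more and together held 332% of its counts. The processed pseudogene Gm7901, chosen after its values were seen, held 3290 and 3068 counts on the high-fat diet and 2491 and 1491 on the control diet. Shmt2, the mitochondrial serine hydroxymethyltransferase, had 114 and 126 CPM in the high-fat-diet mice, against 119.5 and 93.0 CPM in the control-diet mice (adjusted p = 0.52). Mthfd2, the mitochondrial dehydrogenase of the folate cycle, had 72.5 and 68.4 CPM in the high-fat-diet mice, against 62.6 and 66.5 CPM in the control-diet mice (adjusted p = 0.565). The diets overlapped for Shmt2 and lay apart by a small margin for Mthfd2.

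Per length, as TPM, the share of a gene in all counts divided by exonic length, Calr and Hspa5 were the highest of the 38. Calr had 983 and 975 TPM in the high-fat-diet mice, against 1194 and 1114 TPM in the control-diet mice, and Hspa5 had 753 and 768 TPM in the high-fat-diet mice, against 1143 and 1113 TPM in the control-diet mice. In both, the 2 high-fat-diet mice lay below the 2 control-diet mice. The sensor genes were far lower per length, and Ern1 had 14.9 and 16.4 TPM in the high-fat-diet mice, against 28.6 and 25.9 TPM in the control-diet mice. Among the transcription factors, Atf4 led with 316 and 345 TPM in the high-fat-diet mice, against 482 and 497 TPM in the control-diet mice, above Xbp1 with 138 and 149.6 TPM in the high-fat-diet mice, against 168 and 155 TPM in the control-diet mice. Slc7a11 had 4.03 and 3.09 TPM in the high-fat-diet mice, against 14.2 and 5.64 TPM in the control-diet mice, the lowest TPM of the 38 in each library but that of control-diet mouse 1, where Eif2ak4 was lower with 11.6 TPM.

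The 2 control-diet mice differed from each other more than the 2 high-fat-diet mice in 28 of the 38 genes (73.7%), against 6177 of the 10312 genes at or above a mean log2 CPM of 3 (59.9%). The median size of the log2 ratio between the 2 mice was 0.125 on the high-fat diet and 0.23 on the control diet over the 38 genes, against 0.159 and 0.212 over those 10312 genes. Control-diet mouse 1 exceeded mouse 2 most, among the 38, by a log2 ratio of 1.45 in Slc7a11, 1.26 in Chac1, 0.95 in Phgdh, 0.75 in Asns and 0.70 in Trib3. Psat1, Slc3a2, Slc7a5, Shmt2 and Mthfd2 are in the role group of Slc7a11, Asns and Phgdh. Their log2 ratios between these mice were 0.14, 0.33, 0.57, 0.36 and -0.09. Atf4 itself had a log2 ratio of 0.07 between the same mice. On the high-fat diet the largest ratio in size was that of Ddit3, -0.61 for mouse 1 over mouse 2. The median log2 ratio between these control-diet mice was 0.22 over the 38 genes and -0.0053 over all genes tested.

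**Figure D3:**
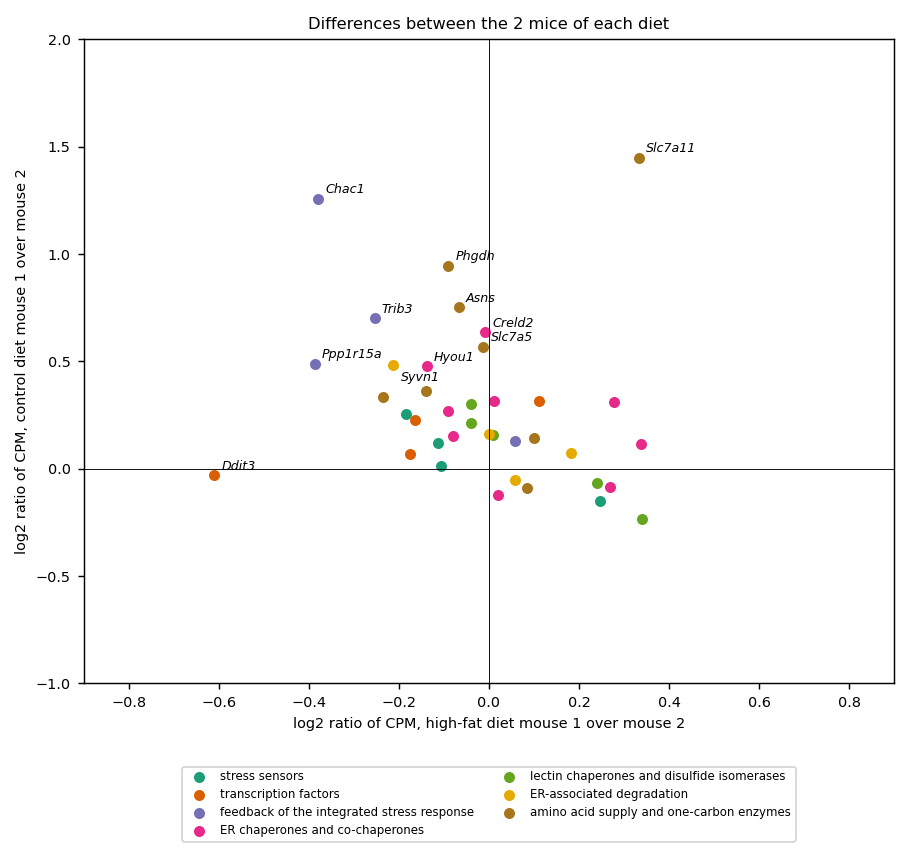
Log2 ratio of CPM between mouse 1 and mouse 2 of the high-fat diet (horizontal) and of the control diet (vertical) for each of the 38 genes, coloured by role. Slc7a11 and Chac1 are the highest points, with control-diet ratios of 1.45 and 1.26, while all points but Ddit3 lie between -0.4 and 0.4 on the horizontal axis.

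Genes with a shared promoter element had fold changes on both sides of 0. Of the 8 genes with ERSE, 1 fell (Syvn1) and the log2 fold changes ran from -0.95 for Syvn1 to 0.37 for Canx, with a median of -0.22. Hspa5, with its match 65 bases before the start, had a log2 fold change of -0.58, and Hsp90b1, with matches 212 and 107 bases before the start, had 0.14. Of the 5 genes with CARE, 0 were called, and 4 had a positive log2 fold change, against 50.4% of all genes tested. Over all genes, 7.91% were called lower and 2.61% higher. The log2 fold changes of the 5 ran from -1.52 for Slc7a11, which held the pair of matches printed above, to 0.53 for Asns. The called genes Ern1, Eif2ak3, Ppp1r15a and Dnajb9 held none of the 4 elements in their window, which says only that these letters were not found there.

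**Figure D4:**
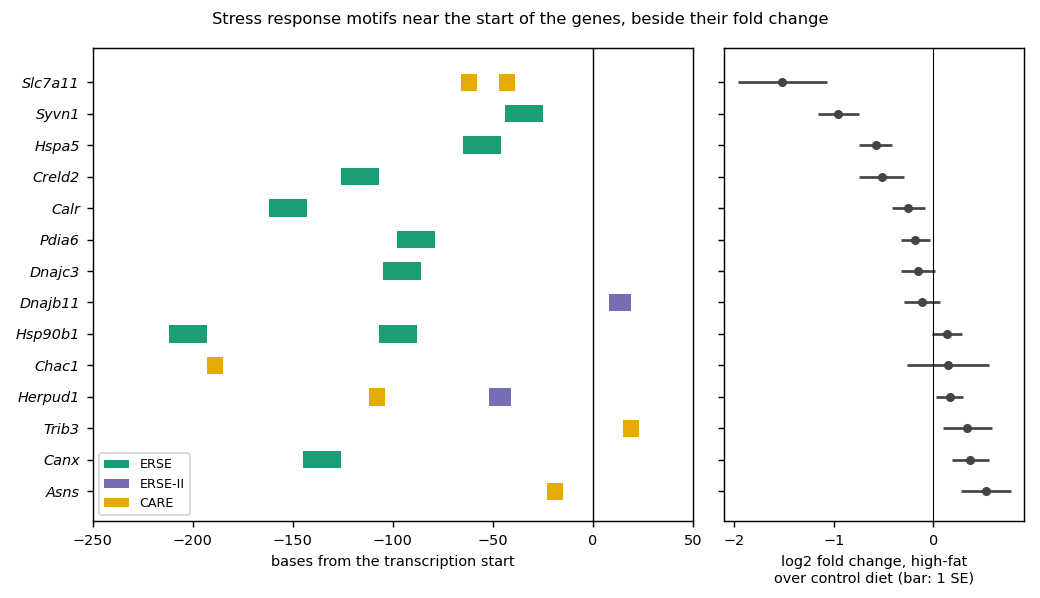
Positions of ERSE, ERSE-II and CARE matches in bases from the transcription start (left) for the 14 genes with a match, beside the log2 fold change of each gene, high-fat over control diet, with bars of 1 standard error (right). Rows run from Slc7a11 at -1.52 down to Asns at 0.53, and ERSE (green) stands on both sides of 0.

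Other genes of the same pathways gave few calls. Of 131 listed genes outside the 38, 128 were tested, 2 rose and 4 fell, with a median log2 fold change of 0.06. Of all genes, 2.61% rose and 7.91% fell, and of those at or above a mean log2 CPM of 3, 2.95% rose and 4.92% fell. The lists were drawn up with earlier results of these data known. Among 35 other ER folding, glycan and translocation genes, 1 rose and 1 fell. Ero1l, the oxidase that recharges disulfide isomerases, had 176 and 237 CPM in the high-fat-diet mice, against 97.7 and 118 CPM in the control-diet mice, and rose 1.91-fold (log2 fold change 0.93, SE 0.20, edgeR adjusted p = 0.0403). Ero1lb, its paralog, had 38.6 and 35.4 CPM in the high-fat-diet mice, against 58.2 and 58.7 CPM in the control-diet mice, and fell 1.58-fold (log2 fold change -0.66, SE 0.14, edgeR adjusted p = 0.0376). Genes of related oxidases thus went in opposite directions. Ero1l was not called when high-fat-diet mouse 2 (adjusted p = 0.161) or control-diet mouse 1 (0.0589) was left out, nor Ero1lb when high-fat-diet mouse 1 (0.19) or mouse 2 (0.222) was. Of 18 other ER-associated degradation genes 0 were called, and the smallest p was that of Man1b1, a mannosidase that marks glycoproteins for degradation, with 88.3 and 89.5 CPM in the high-fat-diet mice, against 138 and 122 CPM in the control-diet mice (adjusted p = 0.0613, but 0.0268 when control-diet mouse 2 was left out).

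Among 27 other targets of the integrated stress response that were tested, 1 rose and 2 fell. Slc38a2, the glutamine and neutral amino acid transporter SNAT2, had 199.9 and 195 CPM in the high-fat-diet mice, against 602 and 615 CPM in the control-diet mice, with the smallest adjusted p of the pathway genes named here. It fell 3.08-fold (log2 fold change -1.62, SE 0.15, edgeR adjusted p = 0.00735), and it was called lower in all 10 alternatives run. Slc1a5, the glutamine transporter ASCT2, had 81.3 and 86.4 CPM in the high-fat-diet mice, against 163 and 124 CPM in the control-diet mice, and fell 1.71-fold (edgeR adjusted p = 0.0457). Vldlr, a lipoprotein receptor induced by ATF4, had 31.5 and 23.5 CPM in the high-fat-diet mice, against 13.6 and 11.1 CPM in the control-diet mice, and rose 2.23-fold (edgeR adjusted p = 0.03). Leaving out high-fat-diet mouse 1 ended the calls of Slc1a5 (adjusted p = 0.24) and Vldlr (0.163), and that of Slc1a5 also ended when high-fat-diet mouse 2 (0.166) or control-diet mouse 1 (0.0667) was left out. Of 20 cytosolic aminoacyl-tRNA synthetases, many of them ATF4 targets, 0 were called (median log2 fold change 0.11), and Wars, the tryptophan enzyme, had the smallest p with 76.8 and 71.0 CPM in the high-fat-diet mice, against 127 and 86.3 CPM in the control-diet mice (adjusted p = 0.149, but 0.0125 when control-diet mouse 2 was left out). Of 14 genes of eIF2, its exchange factor and its other kinases, Impact, an inhibitor of GCN2 activation, alone fell, with 32.7 and 36.2 CPM in the high-fat-diet mice, against 57.0 and 57.0 CPM in the control-diet mice (edgeR adjusted p = 0.0328, but 0.233 and 0.131 when high-fat-diet mouse 1 or 2 was left out). Of 14 other ER stress regulators 0 were called, and Mbtps2, a protease that cleaves ATF6, had 34.8 and 28.4 CPM in the high-fat-diet mice, against 15.3 and 22.2 CPM in the control-diet mice (adjusted p = 0.0822, but 0.00797 when control-diet mouse 2 was left out).

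**Figure D5:**
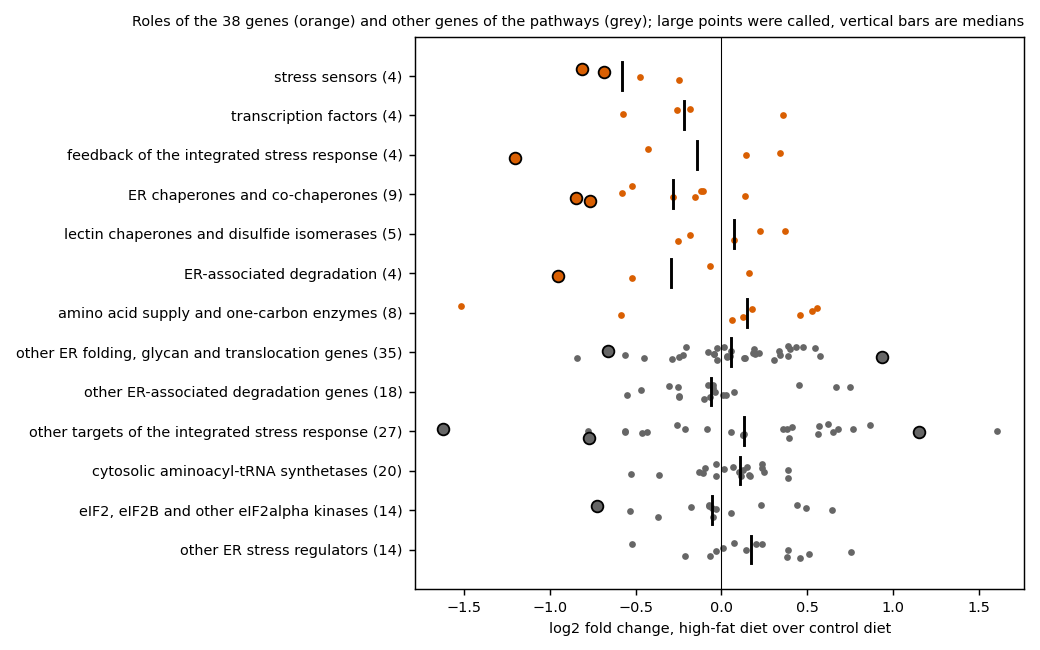
Log2 fold change, high-fat over control diet, of the 38 genes by role (orange) and of the tested genes on 6 further lists of the same pathways (grey), with the number of genes in brackets. Vertical bars are medians and large outlined points are genes called by edgeR. The median of the stress sensors, -0.58, is the lowest, and those of the 6 further lists lie between -0.06 and 0.17.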

How the data were processed

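The authors deposited raw counts, 1 whole number per gene and library. The submitters' processing notes name cutadapt 1.15 and FastQC 0.11.5, the aligner BWA 0.7.12, DESeq2 1.24.0 and the builds GRCm38 and mm10, and the labels' protocols name a stranded mRNA kit. Not given in the sources used here are the counting program, its strand setting and its treatment of reads with several matches. The titles give each library as a mouse of its own, and no molecular identifiers were used.

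Symbols matched 53274 of 53379 identifiers. Coordinates and exonic lengths came from GENCODE mouse release 21 (GRCm38), with coordinates only for the 33 of the 38 genes whose identifier version was the same. The main test was edgeR 4.0.16 under R 4.3.3 (filterByExpr with a minimum count of 10 and a total of 15, TMM scaling, robust glmQLFit, glmQLFTest, diet as the only term) over 18422 genes, with Benjamini-Hochberg adjustment and a threshold of 0.05. The standard error (SE) is the size of the log2 fold change divided by the square root of F. The fit was also run on simulated counts with 200 changed genes, which checks its working and not the calls made here. Alternatives were DESeq2 1.42.0, other scalings and filters, the mouse number as a block, and leaving out each mouse. TPM used the union of exons. Copies were sought with blastn 2.17.0 (at least 90% identity over 200 bases). Exons of the 38 genes shared at most 11.4% of their bases with another gene.

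The 38 genes and all lists were chosen with earlier results of these data known. The text names all 38, the sort markers, and from each further pathway list up to 3 called genes of smallest p in each direction, or the 1 gene of smallest p where none was called. For cell type and quality lists it gives counts and sums, and members at 0, apart from a marker gene that is not reported here. A gene outside this choice is marked as picked with its values in view.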

Additional observations from a re-analysis of the deposited data

How the results depend on the processing

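With 2 mice per diet, every call rests on few samples. The p-values measure the spread between these mice only, with that of each gene drawn toward the spread of other genes. With DESeq2's size factors and with upper-quartile scaling, edgeR called the same 6 of the 38 genes lower and 0 higher. Over all genes, 8.05% and 8.60% were called lower in these fits and 2.40% and 2.48% higher. Without a filter on low counts the same 6 were lower and 1 was higher, with 1552 higher and 2231 lower among all genes and 11 other pathway genes higher. With a minimum average log2 CPM of 2 there were 0 lower of the 38, 70 higher and 279 lower over all genes, and 0 higher and 1 lower among the other pathway genes. The adjusted p of the 6 genes there ran from 0.0556 to 0.0751, and the cause was not tested. DESeq2 called 9 lower, the 6 among them, and 1 higher of the 38, 1075 higher and 1871 lower over all genes and 9 higher among the other pathway genes. With the mouse number as a replicate block 6 of the 38 were lower, 5 of them the same. That fit called 567 higher and 1481 lower over all genes, and 4 rose and 2 fell among the other pathway genes. The labels do not pair the mice, and the deviations of the mice numbered 1 had a correlation of -0.19 across 10312 genes.

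Leaving out 1 mouse in turn gave 0 to 3 higher and 0 to 12 lower of the 38. It gave 71 to 1934 higher and 300 to 2534 lower over all genes, and 1 to 14 higher and 1 to 13 lower among the other pathway genes. The median log2 fold change of the 38 ran from -0.26 to -0.09 over those fits. Of the 38 fold changes, 30 kept their sign in all 10 alternatives and 8 turned in some fit without 1 mouse, none of them called. Over the 4 fits, the log2 fold change ran, for Ddit3, from -0.58 without high-fat-diet mouse 2 to 0.031 without high-fat-diet mouse 1. It ran for Chac1 from -0.35 to 0.91 (also -0.04 without high-fat-diet mouse 2), for Pdia4 from -0.072 to 0.24 and for Slc7a5 from -0.20 to 0.38, lowest without control-diet mouse 2 and highest without control-diet mouse 1 in each. It ran for Dnajb11 from -0.27 to 0.050 (also 0.03 without high-fat-diet mouse 2) and for Manf from -0.26 to 0.063, both highest without control-diet mouse 1. It ran for Dnajc3 from -0.31 to 0.026 and for Sel1l from -0.14 to 0.042, both highest without high-fat-diet mouse 2. A fit without 1 mouse takes the spread of the lone sample from the other diet's pair. Of the sort markers, Adgre1 ran from -0.22 to 0.52 and Itgam from -0.19 to 0.27 over these fits (also -0.09), and Itgam was -0.0084 with upper-quartile scaling and -0.024 with the minimum of 2. The median of the feedback genes turned to 0.19 without control-diet mouse 1. The standard error of the log2 fold change was 0.14 to 0.45 in the 38 genes. Differences of over 3 such errors were not always called (Psat1, Atf4, Hspa5, Edem1, Eif2ak4, Slc7a11 and Slc3a2).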
